A study of Mus musculus with 12 samples.

Results

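The Zfp-named zinc finger genes are the genes whose mouse symbol is Zfp followed by a number only. Members were chosen by that symbol and by their level: a gene had to reach at least 1 RPKM (reads scaled for the length of the transcript and for the mapped reads of the library) in at least 3 of the 12 libraries of C18-4 cells. Of 352 such symbols in the table, 304 met the rule, and these 304 were among 11435 genes of any name that met the same level and were tested. The 48 others were left out, and 3 of them were at 0 RPKM in every library. Just outside the level lay Zfp112, Zfp964 and Zfp712, for which the third highest value was 0.96, 0.98 and 0.99 RPKM, and just inside lay Zfp78, Zfp939 and Zfp612 at 1.03, 1.08 and 1.15 RPKM. Only 1 member, Zfp78, passed through libraries of a single group, 3NC.

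C18-4 is an immortalized mouse line used as a model of spermatogonial stem cells. The 12 libraries form 4 groups of 3. Cells of 3NC carried the LV3 lentiviral vector as control and cells of C18_5251KD, called KD here, carried LV3 with a mixture of shRNAs against the long noncoding RNA lncRNA5251. Cells of 5NC carried the LV5 vector as control and cells of C18_5251OV, called OV here, carried LV5 made to overexpress lncRNA5251, so each treated group has a control with its own backbone. All groups are stably transfected cells of this line, the strain is written as IRC mouse in the labels, and neither a dose nor a time is given there. Nothing says that the 3 libraries of a group came from separate cultures, so p-values measure only the spread between these libraries. The labels name lncRNA5251, while a heading of the supplementary methods for the C18-4 experiment names lncRNA8276, so the target is given here as labelled. The level of lncRNA5251 was not analysed here. Reads per library are unknown, since the table holds RPKM only.

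The labelled cell type was checked against marker genes. Of 14 spermatogonial markers 3 were tested, Uchl1 at 60.1 to 123 RPKM, Etv5 at 2.18 to 7.89 and Id4 at 0.83 to 1.82, while Ret, Nanos2 and Kit were at 0 in all libraries and no library held more than 0.17 RPKM of Gfra1, Zbtb16, Dazl or Ddx4. Of 7 Sertoli, 6 Leydig and 6 mesenchymal markers 3, 1 and 4 were tested. The Sertoli marker Wt1 stood at 49.8 to 57.5 RPKM, with Sox9 and Amh at or near 0. The mesenchymal genes Vim and Col1a1 stood at 520.1 to 632.7 and 249.2 to 436.8 RPKM, but Col1a2, Thy1 and Pdgfrb were at most 0.58, 0.04 and 1.62 RPKM. The summed spermatogonial markers were 82.5 to 91.3 RPKM in 3NC, 63.6 to 71.7 in KD, 93.6 to 97.3 in 5NC and 109 to 127 in OV. The summed mesenchymal markers were 778 to 822, 863 to 960, 926 to 968 and 1004 to 1086 RPKM in the same order. Uchl1 carries the first sum, and Vim with Col1a1 the second. In KD against 3NC, 3 of 3 tested spermatogonial markers were called lower and 3 of 4 mesenchymal ones higher. Of all genes tested 23.5% were lower and 31.9% higher. Between other groups Etv5 and Acta2 did not always move with the sums. Etv5 was at 7.81 ± 0.085, 2.35 ± 0.16, 3.10 ± 0.41 and 2.86 ± 0.19 RPKM and Acta2 at 8.52 ± 0.51, 18.6 ± 1.5, 21.2 ± 1.8 and 13.6 ± 1.0 RPKM (SD, n = 3) in 3NC, KD, 5NC and OV. In bulk RNA, fewer cells of a type and less RNA per cell cannot be told apart. The part of these shifts in the results on the zinc finger genes was not tested.

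Most Zfp genes encode proteins with tandem C2H2 fingers, in which a pair of cysteines and a pair of histidines hold a zinc ion and a short helix reads DNA. Successive fingers are joined by a conserved linker that starts with the residues TGEKP. Many of these proteins also carry a KRAB domain, which recruits the corepressor Trim28 and, through it, the histone H3 lysine 9 methyltransferase Setdb1, and which is best known for silencing retroelements and imprinted regions. KRAB zinc finger genes have multiplied by tandem duplication, so that they lie in clusters and resemble each other in sequence.

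By a search of the proteins of the GENCODE M21 annotation for a C2H2 finger (cysteines 2 to 4 residues apart, 12 residues, histidines 3 to 5 residues apart) and for the KRAB A box, 163 members had both, 130 had C2H2 fingers without KRAB and 10 had no C2H2 match. For 1 member, Zfp469, no transcript was matched. The KRAB search used a single pattern, so a KRAB box that departs from it is missed. Here and below, without KRAB and C2H2 fingers alone mean that no match to that pattern was found. The members without a match are Zfp972, Zfp330, Zfp703, Zfp365, Zfp185, Zfp36, Zfp839, Zfp781, Zfp503 and Zfp939. The name therefore covers unlike proteins: Zfp185 is an actin-associated LIM domain protein, and Zfp36 is tristetraprolin, an RNA-binding protein with CCCH fingers that sends AU-rich mRNA to decay.

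The finger linker is shown because its codons are the sequence that most members share, and a read from shared sequence can map to more than 1 gene. The linker, read as a histidine, TGEKP, an aromatic residue, any residue and a cysteine, was present in 221 of 303 members with a transcript, or 72.9%, against 118 of 10968 other genes tested, or 1.08%. It was found in 93.3% of the members with KRAB and in 53.1% of those with C2H2 fingers alone. Together the members held 1246 linkers of 27 bases, in 798 different spellings, and the median linker had the most frequent base at 23 of 27 positions. The first linker of 7 members whose levels are described in later paragraphs is shown on the coding strand, with the 15 bases that encode TGEKP in capitals, below the most frequent base at each position over all 1246. Coordinates are of GRCm38.
Most frequent bases: catACTGGAGAGAAACCCtataaatgt
Zfp763, chr17:33019243-33019269, minus strand: cacACTGGAGAGAAACCTtatacatgt
Zfp97, chr17:17144778-17144804, plus strand: catACTGGAGAGAAACCCtataaatgt
Zfp810, chr9:22278975-22279001, minus strand: cacACCGGTGAGAAGCCTtatgactgt
Zfp951, chr5:104815081-104815107, minus strand: catACTGGAGAGAAGCCCtatgaatgt
Zfp101, chr17:33381617-33381643, minus strand: cacACTGGAGAGAAGCCTtatgcctgc
Zfp809, chr9:22239079-22239105, plus strand: catACGGGCGAGAAACCAtatgaatgt
Zfp771, chr7:127254084-127254110, plus strand: cacACCGGAGAGAAGCCGtacgcatgc

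The linker of Zfp97 had the most frequent base at all 27 positions, and that of Zfp771, a gene without KRAB, at 19. Beyond the linkers, whole transcripts were shared. For 64 members at least 10% of the 50-base words of the transcript occurred in a transcript of another annotated gene. Zfp97 shared 82.1% of its words with Zfp960, Zfp984 shared 49.8% with Gm13212, and Zfp82 shared 94.4% with Gm26920. The supplementary methods set the aligner to report every hit of a read that maps to several places, but how such reads were counted per gene is not given in the sources used here, so the levels of these 64 members are uncertain.

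The members were expressed at low levels. Their median of mean RPKM over the 12 libraries was 5.36, against 13.97 for all genes tested, and it was 4.41 for the members with KRAB and 6.49 for those with C2H2 fingers alone. Members of the KRAB class ranged up to 30.0 RPKM. The transcripts of the members had a median GC content of 44.6% against 50.5% for all genes tested, and the KRAB class stood at 41.1%. Their median length was 3299 bases against 2960, their median 3' UTR 1129 bases against 952, and they had 5 exons against 9. Members had a median of 11 fingers and a maximum of 36.

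**Figure D1:**
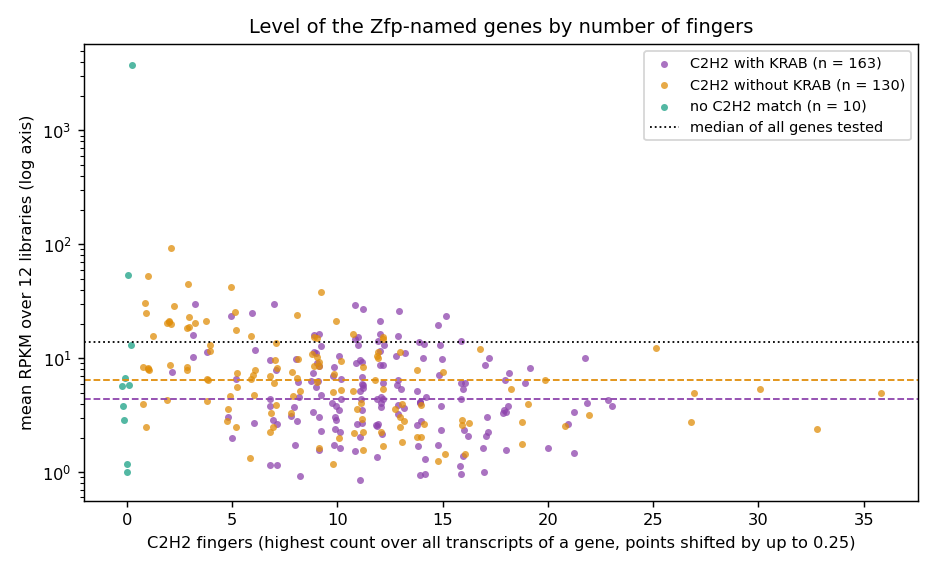
Mean RPKM over the 12 libraries (log axis) of each member with a matched transcript against its number of C2H2 fingers, in 3 classes by color. Dashed lines mark the class medians, 4.41 with KRAB and 6.49 without, and the dotted line the median of all genes tested, 13.97; most members lie below the dotted line, and Zfp972 stands alone at the top.

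Zfp972 was listed far above the rest, with 3727, 3732 and 3936 RPKM in 3NC, 3565, 4259 and 3272 in KD, 3283, 3231 and 3426 in 5NC, and 4599, 4297 and 3827 in OV. It ranked 3rd of all genes in the table. Its matched transcript is 472 bases long, codes for no finger found by the search, and shared 58.4% of its 50-base words with other annotated genes, 51.5% with Gm14392 alone, so its level is uncertain. Without Zfp972 the members made up 0.405 to 0.486% of the summed RPKM of a library.

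The next highest were Zfp207 at a mean of 92.6 RPKM, Zfp330 at 54.2, Zfp706 at 52.3, Zfp106 at 44.9, Zfp91 at 42.5, Zfp664 at 38.2 and Zfp598 at 30.3. Zfp207 is the spindle assembly protein BuGZ, Zfp330 a nucleolar protein, Zfp106 an RNA-binding protein, Zfp91 an E3 ubiquitin ligase, and Zfp598 the E3 ligase that marks collided ribosomes. None of these 7 is in the KRAB class, and Zfp330 is among the 64 members with shared sequence. The highest with KRAB were Zfp809, which silences retroviral sequences in embryonic cells, and Zfp57, which keeps the methylation of imprinted regions, at 30.0 and 29.8 RPKM.

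The comparison of KD with 3NC asks what the knockdown of lncRNA5251 changes. On the scale of log2(RPKM + 1), 65 members were higher and 43 lower in KD at an adjusted p of at most 0.05 (limma over all genes tested, Benjamini-Hochberg). These are 21.4% and 14.1% of the members, while 31.9% and 23.5% of all genes tested were called higher and lower. The methods of the study require a change of at least 1 on a log2 scale and an adjusted p of at most 0.001. Taken on log2(RPKM + 1), this threshold was met by 1 member, Zfp185, and by 1.57% of all genes tested. Taken on the log2 ratio of the group means of RPKM, with no pseudocount and the same limma p after Benjamini-Hochberg adjustment, it was met by Zfp185 (ratio 1.28) and Zfp771 (ratio -1.30), and by 3.45% of all genes tested. The median change of the members was 0.02 and that of all genes tested was 0.04. The split of calls depends on the scaling. It was 55 higher and 64 lower with quantile normalization, where 29.5% and 26.6% of all genes tested were called. It was 60 higher and 80 lower once a trend on transcript length and GC content was removed per library, where 31.5% of all genes were called in each direction.

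The classes split differently. Of the 163 members with KRAB, 37 were higher and 12 lower (22.7% and 7.36%), with a median change of 0.08. Of the 130 with C2H2 fingers alone, 26 were higher and 28 lower, with a median of -0.0088. Of the 10 without a C2H2 match, 2 were higher and 3 lower. Of all genes tested 31.9% were higher and 23.5% lower. A difference between the classes was not tested. The KRAB class has low GC content, and all 833 tested genes in the lowest GC range of the members (up to 41.1%) had a median change of 0.10, with 35.8% called higher and 14.3% lower. After removal of the length and GC trend the KRAB class had 33 higher and 34 lower, beside 31.5% of all genes tested in each direction, and after quantile normalization 30 and 23, beside 29.5% and 26.6%. Whether higher calls outnumbered lower ones in this class thus depended on the scaling.

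The third KD library stood apart from the other KD libraries in the members. Against the mean of 3NC, the change of a member and its GC content had a Spearman correlation of -0.441 in replicate 3 over 303 members, but -0.0907 in replicate 1 and 0.0208 in replicate 2, and over all 11270 genes with a transcript it was -0.304, -0.0279 and 0.0675. Each 3NC library, against the mean of the other 3NC libraries, had -0.180, -0.162 and 0.335 over the members and -0.0138, -0.26 and 0.278 over all genes. These genes share their libraries and are not independent. The median change of the KRAB class was 0.01, 0.02 and 0.12 in replicates 1, 2 and 3. Without replicate 3 the KRAB class had 31 members higher and 15 lower, beside 31.3% and 22.4% of all genes tested. Without replicate 1, and likewise without replicate 2, 7 KRAB members were lower in place of 12, beside 21.5% and 22.3% of all genes.

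**Figure D2:**
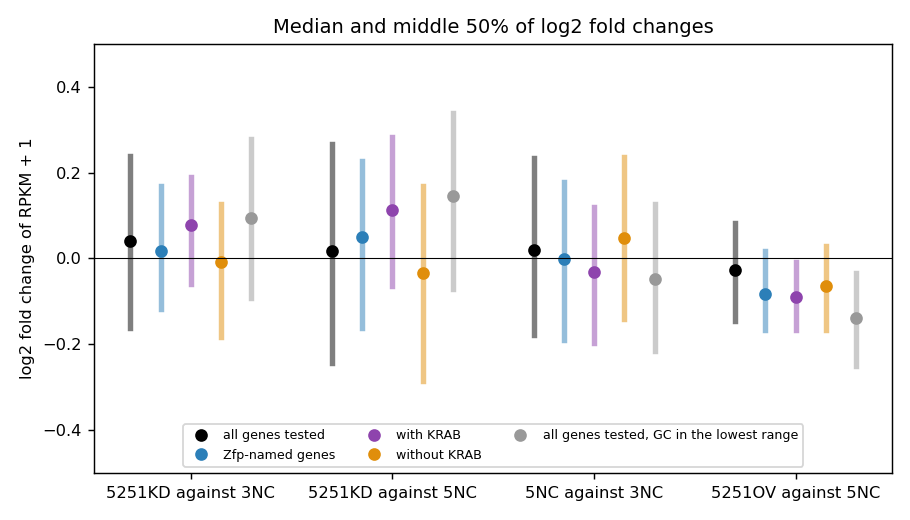
Median (point) and middle 50% (bar) of the log2 fold change of RPKM + 1 in 4 comparisons, for all genes tested, all members, the members with and without KRAB, and all genes tested with GC content in the lowest range of the members. In KD against 3NC the medians are 0.04, 0.02, 0.08, -0.0088 and 0.10 from left to right, and the KRAB class lies on the same side of all genes tested as the genes of low GC content in each of the 4 comparisons.

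Among the members that rose, Zfp763 had the largest rise of the KRAB class. It stood at 23.6, 23.4 and 22.02 RPKM in 3NC and at 38.4, 37.5 and 40.6 in KD, and no KD library came near those of any other group, since 5NC held 21.7 to 22.5 and OV 19.2 to 23.9. The change was 0.73 ± 0.07 (SE, log2 scale, adjusted p = 4.27e-07 by limma with Benjamini-Hochberg adjustment) against 3NC and 0.78 ± 0.07 against 5NC. No sequence of 50 bases of its transcript occurs in another annotated gene.

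Zfp810, also of the KRAB class, went from 4.49, 3.32 and 3.70 RPKM in 3NC to 6.17, 5.69 and 6.51 in KD, a change of 0.56 ± 0.09 (SE). Its 5NC libraries held 3.59 to 3.96 and its OV libraries 3.32 to 4.03, so that only the KD libraries were high. Zfp97 went from 15.5, 14.8 and 13.5 RPKM to 21.6, 20.2 and 24.6, a change of 0.57 ± 0.07. Zfp984 went from 12.9, 14.1 and 12.6 RPKM to 20.8, 17.7 and 22.5, a change of 0.58 ± 0.08. For both of these the groups did not overlap, but their transcripts are largely shared with other genes, as given before.

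Zfp467, a C2H2 gene without KRAB known from the choice between bone and fat cells, stood at 1.59, 2.16 and 2.27 RPKM in 3NC and at 2.87, 4.01 and 3.40 in KD, a change of 0.56 ± 0.12 (SE). Its OV libraries held 1.15, 1.46 and 1.63 RPKM, so that the highest of them just passed the lowest 3NC library. Against 5NC the rise of Zfp763, Zfp97, Zfp810, Zfp467 and Zfp984 was 0.78, 0.74, 0.57, 0.50 and 0.41, and each passed the threshold there too. The 2 comparisons share the KD libraries.

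For 3 others that rose against 3NC, the 5NC control was itself high. Zfp185 stood at 3.57, 3.30 and 3.24 RPKM in 3NC and at 7.36, 7.60 and 9.52 in KD, the largest rise of the members at 1.06 ± 0.09 (SE, adjusted p = 2.09e-07, limma with Benjamini-Hochberg adjustment). With 6.0, 6.96 and 6.67 RPKM in 5NC, its change against that control was 0.27 ± 0.09. Zfp951 was at 1.86, 1.69 and 1.33 RPKM in 3NC, at 2.58, 3.13 and 2.69 in KD and at 2.31, 2.32 and 2.17 in 5NC. Zfp521, a cofactor of progenitor cells with many fingers, was at 1.93, 1.84 and 1.61 RPKM in 3NC, 3.33, 3.18 and 2.65 in KD and 3.27, 3.47 and 3.73 in 5NC, so its change of 0.53 against 3NC became -0.15 against 5NC, where it did not pass.

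The largest fall was that of Zfp771, from 5.68, 4.26 and 4.44 RPKM in 3NC to 1.84, 2.70 and 1.30 in KD. The change was -0.99 ± 0.14 (SE, adjusted p = 2.42e-05, limma with Benjamini-Hochberg adjustment), and 5NC and OV held 5.41 to 6.81. Zfp346, which binds double-stranded RNA, fell from 12.2, 11.9 and 13.1 RPKM to 6.85, 7.44 and 7.52, a change of -0.70 ± 0.06. Its 5NC and OV libraries lay between 12.4 and 14.0, so that the KD libraries stood alone at the bottom.

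Zfp428 fell from 11.7, 13.2 and 14.1 RPKM in 3NC to 8.38, 7.91 and 7.04 in KD, a change of -0.67 ± 0.09 (SE). Both LV5 groups were higher than 3NC, at 18.2 to 23.2 RPKM, so the change against 5NC was larger, -1.25. Zfp101, a KRAB gene, fell from 10.6, 10.2 and 10.3 RPKM to 6.27, 6.81 and 7.14. Zfp593, whose relatives help to assemble the large ribosomal subunit, fell from 7.55, 7.60 and 8.69 RPKM to 5.09, 4.86 and 5.71. Zfp574 fell from 6.05, 5.71 and 6.43 RPKM to 4.48, 4.25 and 3.31. In all 4 genes the KD libraries lay below every library of both control groups.

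Zfp281, a regulator of pluripotent cells, fell from 9.50, 10.4 and 9.79 RPKM in 3NC to 6.38, 6.69 and 7.04 in KD, while 5NC held 7.71 to 8.25 and OV 6.34 to 7.14. Zfp207 fell from 121.4, 119.6 and 118.5 RPKM in 3NC to 78.2, 77.0 and 84.5 in KD, a change of -0.58 ± 0.04 (SE, adjusted p = 3.86e-08, limma with Benjamini-Hochberg adjustment). But the 5NC libraries held 81.6, 80.6 and 79.0 RPKM and the OV libraries 89.5 to 92.2, so 3NC was the group that stood apart, and the change against 5NC was -0.01 ± 0.04.

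**Figure D3:**
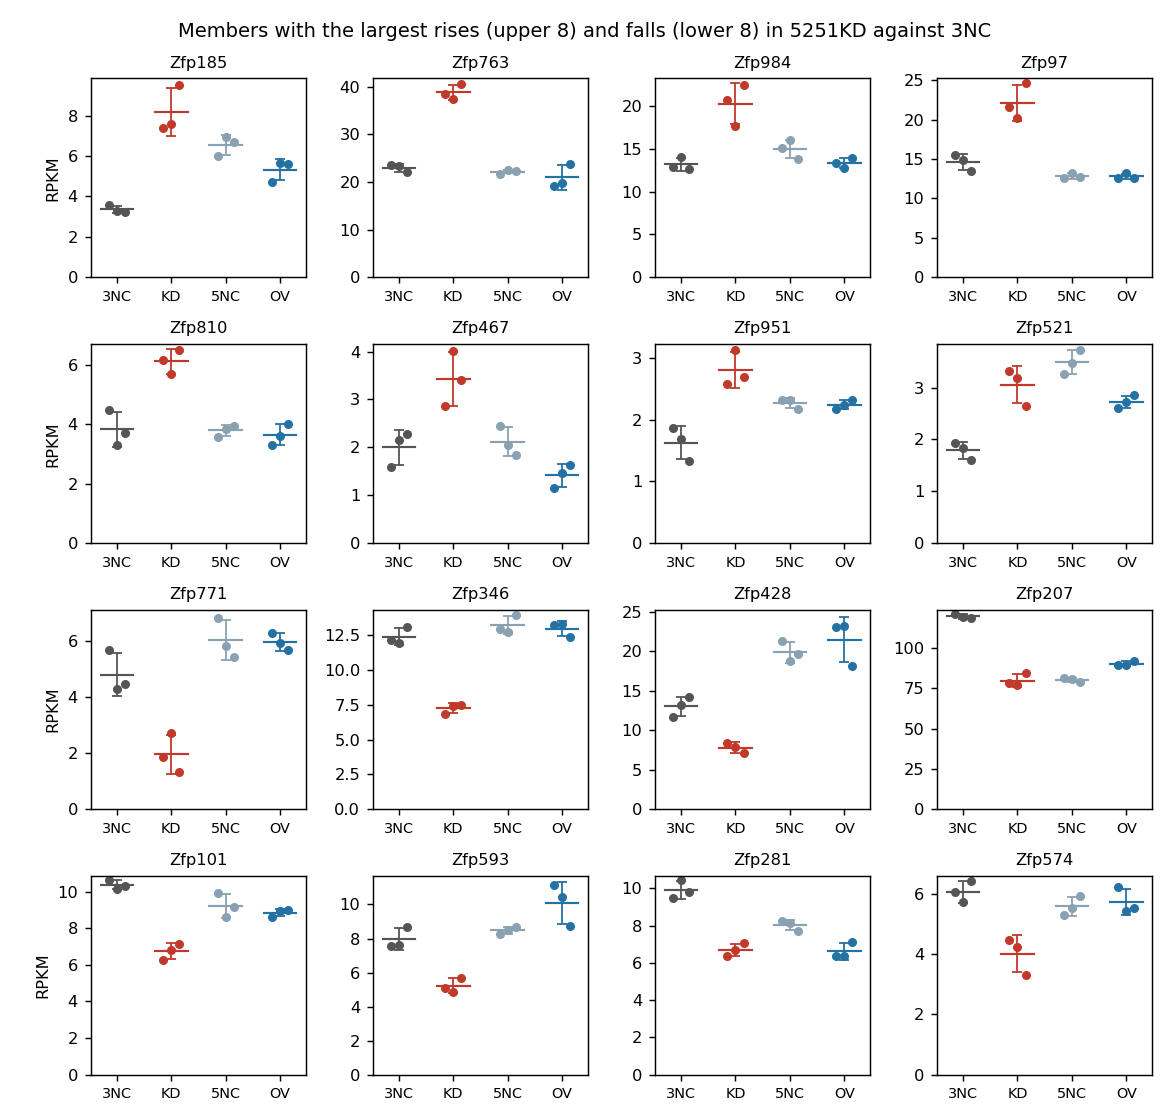
RPKM in every library of the 8 members that rose most in KD against 3NC, and of the 8 that fell most, among members called without overlap of these groups. Points are libraries, lines are group means and error bars are SD (n = 3); the vertical axes start at 0. In Zfp763, Zfp810, Zfp771 and Zfp346 the KD libraries lie apart from all other groups, while in Zfp207 the 3NC libraries do.

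With 5NC as the control of KD, 84 members were higher and 74 lower, beside 34.0% and 31.4% of all genes tested. The KRAB class had 53 higher and 25 lower there, and the C2H2 genes without KRAB 29 and 47. This comparison shares the KD libraries with the one against 3NC.

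By function, 46 of 52 Zfp-named genes listed for a known role were members, and 5 (10.9%) were higher and 14 (30.4%) lower in KD against 3NC, beside 31.9% and 23.5% of all genes tested. The groups within the list hold 5 to 12 members each, so their counts are given as a description only. The RNA, ribosome and ubiquitin group had 12 members, with 1 higher and 5 lower. Besides Zfp207, Zfp346 and Zfp593, the fall concerned Zfp598, from 28.6 ± 0.62 to 24.2 ± 1.8 RPKM (SD, n = 3), and Zfp36, from 6.04 ± 0.32 to 4.63 ± 0.17. Zfp326, which couples splicing to transcription, was higher at 23.1 ± 1.2 than at 19.4 ± 0.58 RPKM, though lower than in 5NC, at 28.5 ± 1.3.

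Of 8 promoter factors 5 were lower and 0 higher, where 23.5% and 31.9% of all genes tested were. They are Zfp281, Zfp335 (3.72 ± 0.30 to 2.68 ± 0.24 RPKM), Zfp131 (27.4 ± 0.85 to 21.9 ± 2.9), Zfp384 (19.7 ± 0.56 to 16.6 ± 0.86) and Zfp143 (8.45 ± 0.81 to 7.14 ± 0.79), each as mean ± SD of 3 libraries. Zfp335, Zfp131, Zfp384 and Zfp281 were also lower against 5NC, but Zfp143 was not, with a change of 0.18 there. For Zfp384 the LV3 libraries of both 3NC and KD (15.6 to 20.3 RPKM) lay below all LV5 libraries (27.9 to 32.2). Its fall against 5NC thus holds the difference between the controls. The call of Zfp143 did not hold with the replicate number as a block (adjusted p = 0.053, limma with Benjamini-Hochberg adjustment), with only the 6 libraries compared, without a filter, or without 1 of 4 single libraries. The level of Zfp384 is uncertain, since 16.8% of its words occur in other genes. The highest KD library of Zfp143, at 7.88 RPKM, lay above its lowest 3NC library, at 7.51.

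Of 8 scaffolds of chromatin corepressors 3 were higher and 2 lower, beside 31.9% and 23.5% of all genes tested. Zfp217, a partner of the CoREST complex, rose from 7.5 ± 0.072 to 9.31 ± 0.34 RPKM, Zfp532 from 1.48 ± 0.20 to 2.40 ± 0.28, and Zfp592 from 4.39 ± 0.17 to 5.03 ± 0.29. The call of Zfp592 was at the threshold: in 11 of 16 alternatives it was lost or turned, among them quantile normalization (adjusted p = 0.211, limma with Benjamini-Hochberg adjustment), the replicate block (0.0588) and the removal of any single 3NC library. Zfp516 and Zfp687 were lower, by -0.19 and -0.20 on the log2 scale, and Zfp516 in KD was at the level of 5NC. Both calls were lost without 3NC replicate 2, 3NC replicate 3 or KD replicate 3 (adjusted p from 0.0558 to 0.0865 for Zfp516 and from 0.0836 to 0.158 for Zfp687, limma with Benjamini-Hochberg adjustment), and that of Zfp687 also with no filter on low values (0.0578) and with only the 6 libraries compared (0.0503). Against 5NC only Zfp217 of these 5 was higher, by 0.35 on the log2 scale, while Zfp592 was lower there, at -0.17. Of 7 developmental factors 1 was higher, Zfp521, and 1 lower, Zfp703, from 10.8 ± 0.35 to 9.03 ± 0.76 RPKM, beside the same shares of all genes.

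Of 5 members that silence imprinted regions or retroelements 1 was called, Zfp445, which was at 16.1, 17.7 and 16.7 RPKM in 3NC and at 13.0, 13.1 and 13.5 in KD. Its 5NC libraries held 12.2 to 13.1, and its change was 0.057 against that control. Of 6 members with SCAN or other KRAB architectures 0 were called by limma, and 0 had an unadjusted p under 0.05. Of all genes tested 31.9% were higher and 23.5% lower, and 6910 of 11435 had an unadjusted p under 0.05.

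The partners of the KRAB proteins were looked at beside them. Trim28 was at 93.0 ± 2.3 RPKM in 3NC and at 87.2 ± 6.2 in KD (SD, n = 3) and did not pass (adjusted p = 0.14, limma with Benjamini-Hochberg adjustment), while it was lower than in 5NC, at 104 ± 1.7 RPKM. Setdb1 was lower, 5.24 ± 0.32 against 4.00 ± 0.34 RPKM, but 5NC held 4.09 ± 0.33. Of 30 tested genes of this machinery 3 were higher (Sumo2, Hdac2 and Mphosph8) and 8 lower, the largest of these changes being -0.33 for Hdac1. These counts and those of other families stand beside 31.9% higher and 23.5% lower among all genes tested, and no family was tested against that share. Among other zinc finger families, 5 of 38 Zbtb genes were higher and 13 lower, 7 of 17 Zkscan and Zscan genes higher and 3 lower, 6 of 20 Klf and Sp genes higher and 5 lower, and 1 of 23 Zfp genes with letters in place of the number higher and 5 lower. Of 17 genes that act on AU-rich mRNA 2 were higher and 5 lower.

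Most members lie beside others on the chromosome. In the RefSeq gene table of GRCm38.p6, 185 members lay in 33 clusters, each with at least 3 Zfp-named genes and gaps of at most 500 kb, and 119 lay outside. Of the clustered members 129 had KRAB, against 34 of the others. In KD against 3NC, 37 clustered members were higher and 19 lower (median 0.03), and 28 of the others were higher and 24 lower (median -0.0041). Of all genes tested 31.9% were higher and 23.5% lower. The largest cluster, on chromosome 17, held 22 members, all with KRAB, of which 5 were higher, 2 lower and 15 not called.

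Single clusters held members that moved in opposite directions. A cluster of 10 members on chromosome 17 held Zfp763, with the largest rise of the KRAB class, and Zfp101, with a change of -0.55. A cluster of 10 on chromosome 7, in which no member matched the KRAB pattern, held Zfp428 and Zfp574, both lower, with 2 others higher and 1 more lower. In a cluster of 4 members on chromosome 9, Zfp810 rose while Zfp809, of the same cluster, was at 35.8, 40.5 and 40.0 RPKM in 3NC and at 37.5, 35.6 and 42.8 in KD.

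**Figure D4:**
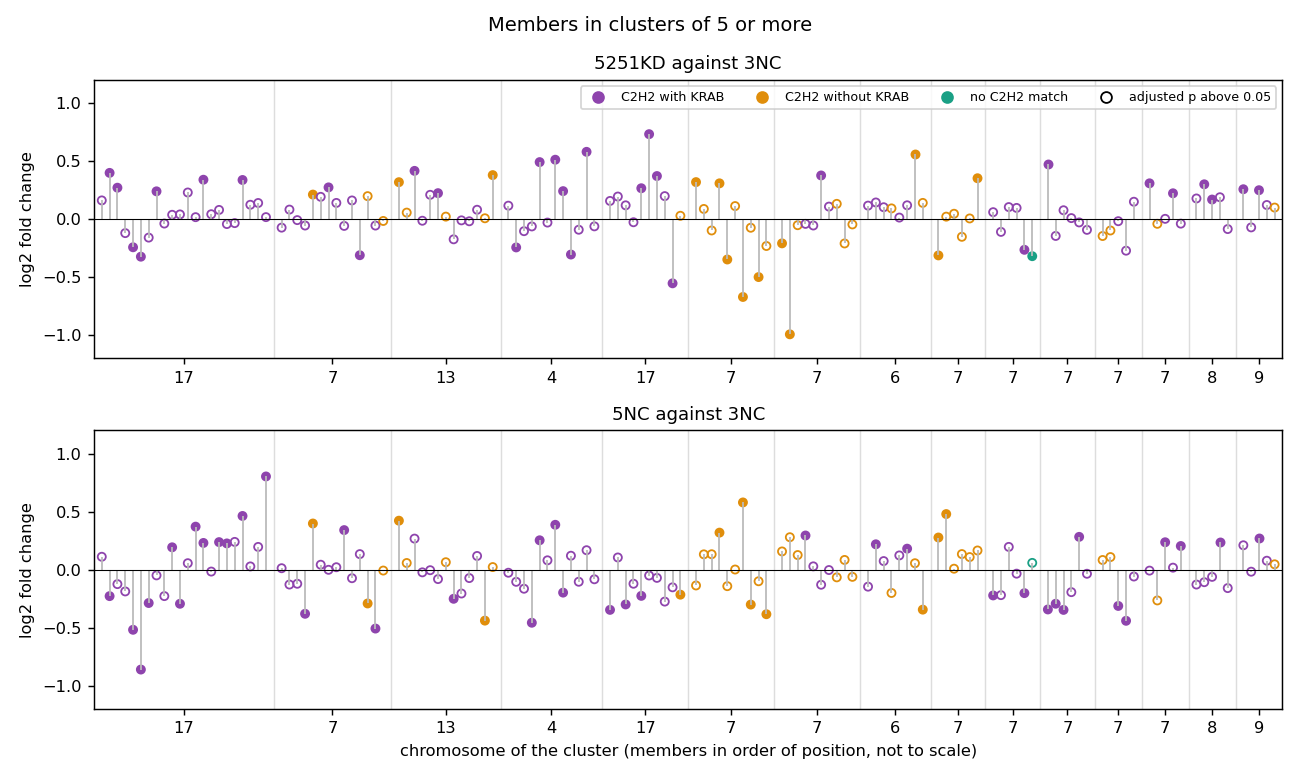
Log2 fold change of each member in the 15 clusters with 5 or more members (137 members), in order of position and labelled by chromosome, for KD against 3NC (upper) and 5NC against 3NC (lower). Filled points have an adjusted p of at most 0.05 and colors give the class; higher and lower members occur side by side in the same clusters.

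The 2 controls carry different backbones, and their comparison shows how far the members differ without lncRNA5251 being targeted. In 5NC against 3NC, 66 members were higher and 63 lower, beside 31.0% and 25.6% of all genes tested, and the median was -0.00072. With each library centred on the median of all genes the split was 57 and 83, beside 27.1% higher and 29.8% lower among all genes tested. The threshold of the study was passed on log2(RPKM + 1) by 0 members and by 2.61% of all genes tested. On the log2 ratio of mean RPKM it was passed by Zfp213 (1.10) and Zfp52 (-1.18), 2 members, and by 4.64% of all genes tested. In limma, 152 of 304 members had an unadjusted p under 0.05, beside 7021 of 11435 genes tested. The libraries of these groups differ in vector backbone and insert, which cannot be told apart from other differences between the cultures.

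In some members the LV3 and LV5 libraries did not overlap. In 52 members all 6 LV3 libraries (3NC and KD) lay above all 6 LV5 libraries (5NC and OV), and in 29 they lay below. These are 17.1% and 9.54% of the members, and 16.0% and 16.7% of all genes tested. Zfp809 held 35.6 to 42.8 RPKM in the LV3 libraries and 18.5 to 24.0 in the LV5 libraries. Zfp57 held 34.2 to 37.3 against 21.3 to 25.8 RPKM, and Zfp970 16.9 to 18.6 against 8.48 to 11.4 RPKM. The level of Zfp970 is uncertain, since 57.2% of its words occur in other genes.

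In 5NC against 3NC the changes of Zfp809, Zfp970 and Zfp57 were -0.77 ± 0.08, -0.66 ± 0.08 and -0.61 ± 0.06 (SE), and in KD against 3NC, which shares the 3NC libraries, they were -0.0072, 0.00070 and 0.0013. Zfp52 had the largest fall, from 4.09, 3.72 and 4.56 RPKM in 3NC to 1.68, 2.02 and 1.75 in 5NC, a change of -0.86 ± 0.08. Zfp692 fell from 9.30, 7.40 and 11.1 to 4.82, 5.90 and 6.67 RPKM.

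On the other side, Zfp213 held 1.71 to 2.28 RPKM in the LV3 libraries and 3.83 to 4.60 in the LV5 libraries, and Zfp651 held 2.18 to 2.89 against 4.83 to 5.50 RPKM. Zfp827, which binds telomeric chromatin, was at 3.13, 2.79 and 2.68 RPKM in 3NC and at 5.45, 5.45 and 5.41 in 5NC. Their changes were 0.80, 0.75 and 0.74 on the log2 scale in 5NC against 3NC. Zfp185 and Zfp521 rose by 0.79 and 0.69 in the same comparison, and both were high in KD as well, so their LV3 and LV5 libraries did not separate.

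In OV against 5NC, which asks for the effect of overexpressed lncRNA5251, 9 members were higher and 32 lower, beside 8.07% and 13.9% of all genes tested. The median change was -0.08, and -0.03 in all genes tested. The threshold of the study was passed by 0 members on either scale, by 0% of all genes tested on log2(RPKM + 1) and by 0.0350% on the ratio of mean RPKM. In limma, 85 of 304 members had an unadjusted p under 0.05, beside 4240 of 11435 genes tested. The KRAB class had 2 higher and 15 lower and the C2H2 genes without KRAB 5 higher and 17 lower. Leaving out 1 library at a time, the lower members ranged from 4 to 44 with KRAB and from 3 to 36 without.

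In OV, replicate 3 differed from replicates 1 and 2. Against the mean of 5NC the median change of the members was -0.12 and -0.10 in these libraries and -0.01 in replicate 3. Without replicate 3, 83 members were lower and 12 higher, beside 21.9% and 14.6% of all genes tested. Without replicate 1, 7 were lower and 5 higher, beside 5.45% and 3.45%, and without replicate 2, 9 and 6, beside 5.1% and 3.42%. The calls of all genes thus moved the same way. Without a single 5NC library, 10 to 19 were lower, beside 5.54% to 8.84% of all genes tested. Leaving out both replicates 1 and 2 leaves a single OV library, which was assumed to vary like the other groups. The median change was then -0.01 in the members and -0.03 in all genes tested. A fit on a single library has less power, so calls lost in it do not show that the changes were absent from replicate 3. Of the 10 named members of this comparison, 8 kept the call without replicate 1 and 10 without replicate 2, while 0 kept it with both left out. The fold of replicate 3 alone was then 0.32 for Zfp82, which is no smaller than with all libraries, and 0.18 to 0.22 for Zfp575, Zfp414, Zfp972 and Zfp488. It was -0.15 to -0.27 for the 5 members that were lower.

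The members' change followed GC content in the same libraries. Spearman correlations between change and GC content over 303 members were 0.486 and 0.505 in replicates 1 and 2 and -0.117 in replicate 3, and over 11270 genes 0.487, 0.444 and 0.018. With transcript length they were -0.330, -0.273 and -0.0523 in the members, and with the length of the 3' UTR -0.305, -0.275 and -0.0336. Over all genes they were -0.508, -0.403 and -0.0330 with transcript length and -0.363, -0.309 and -0.0047 with the 3' UTR. The genes share libraries, and these values are a description. In OV against 5NC the members of low, middle and high GC content (bounds 41.1% and 48.9%) had medians of -0.15, -0.09 and 0.01, and all genes tested in the same ranges had -0.14, -0.09 and 0.03. With the length and GC trend removed, 19 members were higher and 19 lower, with a median of 0.0046, beside 12.2% and 11.3% of all genes tested. With quantile normalization 13 were higher and 11 lower, beside 8.21% and 8.31%.

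**Figure D5:**
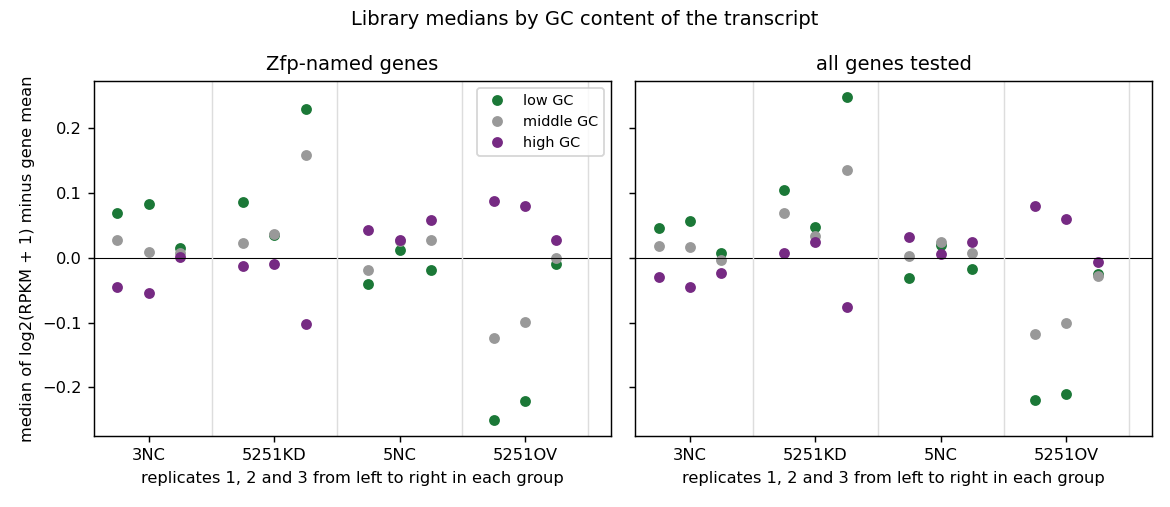
Median over genes of log2(RPKM + 1) minus the mean of the gene over the 12 libraries, for each library and each of 3 ranges of GC content, in the members (left) and in all genes tested (right). In OV replicates 1 and 2 the members of low GC content lie at -0.25 and -0.22 and those of high GC content at 0.09 and 0.08, in replicate 3 at -0.01 and 0.03; KD replicate 3 shows the opposite order, 0.23 and -0.10.

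Among members called without overlap of the 2 groups, those with the largest fall in OV show this library by library. Zfp369, which encodes a relative of the neurotrophin receptor-interacting factor, was at 0.42 and 0.57 RPKM in replicates 1 and 2 and at 1.55 in replicate 3, beside 1.95, 2.0 and 1.91 in 5NC. Zfp445, which guards imprinted regions, was at 8.05, 8.22 and 11.3 RPKM beside 12.2, 13.1 and 12.7. Zfp148, a promoter factor, was at 9.10, 9.40 and 12.7 RPKM beside 14.1, 15.1 and 13.6. In each of these 3 the third library lay nearest to the control.

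Zfp442 was at 0.75, 0.97 and 1.17 RPKM in OV beside 1.64, 1.67 and 1.56 in 5NC, and Zfp318 at 2.57, 2.82 and 3.67 beside 3.99, 4.25 and 4.37. The changes of these 5 genes ran from -0.38 to -0.73 on the log2 scale. The rises were smaller, from 0.24 to 0.37. Zfp575 was at 8.41, 7.33 and 6.44 RPKM beside 5.89, 4.92 and 5.59, Zfp414 at 25.1, 23.1 and 21.7 beside 17.3, 18.9 and 19.2, and Zfp488, known from oligodendrocytes, at 23.6, 21.7 and 21.1 beside 18.3, 18.7 and 18.8. Zfp972 rose by 0.35 and Zfp82 by 0.28 on the log2 scale. Zfp82, Zfp972, Zfp442, Zfp414 and Zfp488 are among the 64 members of uncertain level, with 94.4%, 58.4%, 32.3%, 25% and 15% of their words shared.

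The 2 treatments were set side by side, each with its own control, and these comparisons share no library. Called in both were 8 members (2.63%) in opposite directions and 7 (2.3%) in the same direction, and 9.75% and 3.42% of all genes tested. Those higher in KD and lower in OV numbered 5, and those lower in KD and higher in OV numbered 3. Zfp467 was higher in KD and lower in OV, by 0.56 and -0.37 on the log2 scale with each group's own control. Zfp207 was lower in KD and higher in OV, by -0.58 and 0.17, but its level in KD was that of 5NC. Both were chosen after their values were seen. The difference between the comparisons was not tested.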

How the data were processed

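Expression was measured in 12 libraries of C18-4 cells, 3 in each of 4 groups taken from the labels. Per the study's methods, oligo(dT)-selected mRNA was sequenced by Illumina, reads were aligned to a set of genes with SOAPaligner, and the authors deposited RPKM for 17576 genes. The genome build and gene set are not given in the sources used here, and depth is unknown. RPKM does not remove a library's trend with GC content, and related genes can trade reads.

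The deposited RPKM were put on the scale of log2(RPKM + 1), which understates changes of low genes, and a gene was kept when 3 or more libraries reached 1 RPKM. A limma model (version 3.58.1, R 4.3.3) held the 4 groups as means, with a spread that varied with level (eBayes trend). The Benjamini-Hochberg adjustment ran over 11435 genes. The fit was tested on simulated data. An exact permutation test of 3 against 3 libraries cannot go below p = 0.1. Classes, length and GC content came from GENCODE M21 on GRCm38, positions from RefSeq. Named members were those called without overlap of the groups that changed most (8 each way in KD against 3NC, 5 each way in the others), the 8 highest, and called members of the role lists. The members, lists and tests were chosen with earlier results of these data known. Alternatives were other pseudocounts, filters, normalizations, controls, thresholds, a replicate block and leaving out libraries. Figures used matplotlib 3.10.9 in Python 3.11.15.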

Additional observations from a re-analysis of the deposited data

How the results depend on the processing

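The threshold of the study on log2(RPKM + 1) left 1 member higher and 0 lower in KD against 3NC, and 0 and 0 in the other comparisons. On the ratio of mean RPKM it left 1 and 1 in KD against 3NC, 1 and 1 in 5NC against 3NC, and 0 and 0 in OV against 5NC. For KD, removing the length and GC trend gave 80 lower with a median of -0.046, beside 31.5% of all genes tested. With 5NC as the control 74 were lower with a median of 0.051, beside 31.4% of all genes tested. For OV against 5NC the members lower were 16 without a filter, 11 with quantile normalization, 17 with median centring, 19 with the trend removed, 19 with only the 6 libraries compared and 0 without replicates 1 and 2. Of all genes tested 6.81%, 8.31%, 8.94%, 11.3%, 7.55% and 1.1% were lower in the same settings, in place of 13.9%. The members higher were 19 with the trend removed, beside 12.2% of all genes tested. Without members that share sequence 4 of 239 were higher, beside 8.07%. The median became -0.012 with quantile normalization, 0.0046 with the trend removed and -0.014 without replicates 1 and 2. In 5NC against 3NC it became -0.022 and -0.039 with quantile normalization and median centring. The causes were not tested beyond what each setting changes.

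Leaving out 1 library at a time, members higher and lower ranged from 53 to 62 and 34 to 42 in KD, from 5 to 12 and 7 to 83 in OV (10 lower without 5NC replicate 2), and from 60 to 62 and 50 to 58 in 5NC against 3NC. Medians ranged from -0.012 to 0.048, from -0.11 to -0.064 and from -0.0098 to 0.010. Of all genes tested, 28.4% to 31.3% were higher and 20.5% to 22.4% lower in KD in the same settings. These shares were 3.42% to 14.6% and 5.1% to 21.9% in OV, and 27.8% to 28.2% and 22.2% to 22.9% in 5NC against 3NC. With 5NC as the control the sign turned for Zfp521 (-0.15), Zfp972 (0.15), Zfp106 (0.23), Zfp91 (-0.31), Zfp664 (-0.44), Zfp326 (-0.29), Zfp445 (0.057), Zfp516 (0.0093), Zfp687 (0.12), Zfp143 (0.18) and Zfp592 (-0.17). Zfp972 also turned with quantile normalization (0.0090) and without KD replicate 3 (0.037). In Zfp664, Zfp326 and Zfp592 all LV3 libraries lay below all LV5 libraries, and in Zfp106 they lay above. For these genes the change against 5NC holds the difference between the controls.

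With the replicate number as a block, 64 members were higher and 42 lower in KD, 7 and 32 in OV, and 65 and 69 in 5NC against 3NC, with medians of 0.02, -0.08 and -0.00072. Of all genes tested, 31.9% and 23.5%, 7.77% and 14%, and 31% and 25.6% were higher and lower in the same order. Same-numbered libraries did not deviate together (correlations from -0.18 to 0.18), so the numbers were not taken as a pairing.

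The list of sequence-sharing members, the threshold on the ratio of mean RPKM, the alternatives of the class counts and the look at KD replicate 3 were added after seeing the data. Without counts no depth or counting error can be given, so small differences of members near 1 RPKM have unknown precision.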
